A study of Mus musculus with 12 samples.

Results

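The genes described here encode the factors that start protein synthesis, the eukaryotic initiation factors, together with the kinases and binding proteins that carry their names. They were chosen as the protein-coding genes of GENCODE mouse release 21 whose symbol is Eif followed by a digit, leaving out Eif4e1b and Eif4enif1. This gave 53 genes of the 55573 genes in the count files, where 21980 genes are protein-coding. In initiation, the cap at the start of a messenger RNA is bound by eIF4E, which with the scaffold eIF4G and the helicase eIF4A forms a complex that recruits the small ribosomal subunit. That subunit carries eIF3, eIF1, eIF1A and the initiator transfer RNA delivered by eIF2, and after the start codon is found, eIF5 and eIF5B let the large subunit join. Fully grown oocytes are nearly silent in transcription and live on stored messenger RNA, so that which stored messages are translated is controlled largely at initiation.

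The study measured poly(A) RNA in single mouse oocytes at the germinal vesicle (GV) stage, the stage of prophase arrest with an intact nuclear envelope with different cycles of amplification and different amounts of oocyte, and with the spike-in RNA mix of the External RNA Controls Consortium (ERCC) added. The methods give a B6D2F1 female aged 12 weeks as the source and M2 medium with milrinone, which holds meiotic arrest, for collection; the labels name M2 medium alone and no genetic change. The 12 libraries form 6 groups of 2: whole oocytes with 10, with 14 or with 18 cycles of amplification, and portions of an oocyte (1/2, 1/4, 1/8), all of which had 18 cycles according to the methods. The whole-oocyte libraries came from 6 oocytes, and the fractions were diluted from the lysates of 2 oocytes, with the same amount of ERCC mix added to each tube after dilution.

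No difference between groups in genotype, age or treatment is stated. The replicates at each cycle number are different oocytes. It is not stated which fraction came from which oocyte lysate. The p-values below therefore measure the spread between these particular libraries. The libraries with 10 cycles had 11597144 and 9189672 counts on genes, those with 14 cycles 12349577 and 13806199, and the whole oocytes with 18 cycles 3017069 and 1706478. Among the fractions, the 1/2 libraries had 4024670 and 3598549, the 1/4 libraries 4027907 and 5049518, and the 1/8 libraries 11404262 and 1702062. Depth was lower in both whole oocytes at 18 cycles than in all 4 at 10 and 14 cycles, and cycle number, oocyte, depth and preparation cannot be told apart in these groups. A lower count can come from less of a transcript in the oocyte or from less of it carried through the preparation, and these cannot be told apart either.

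The oocyte identity of the libraries was checked with a list of markers. All 10 of 10 oocyte markers were detected in all 12 libraries, with Gdf9, Padi6 or Ooep the most abundant. Their summed level was 30680 and 26311 CPM (counts over all counts on genes, scaled to the usual common total) at 10 cycles, 29151 and 30645 at 14 cycles, but only 8645 and 6904 at 18 cycles. In the fractions it was 9951 and 10068 CPM for 1/2, 15311 and 16766 for 1/4, and 22982 and 22031 for 1/8. Of 9 markers of granulosa and cumulus cells, 4 to 9 were detected in each library. Their summed level was 85.5 and 46.1 CPM at 10 cycles, 60.7 and 97.9 at 14 cycles, 38.8 and 11.7 at 18 cycles, 14.7 and 16.1 for 1/2, 33.3 and 32.7 for 1/4, and 46.0 and 41.7 for 1/8. Cyp19a1 was the most abundant of them, except in a library at 10 cycles and a library at 18 cycles where Inha was. Ptx3 was at 0 in every library but replicate 2 at 14 cycles. Of 4 blood markers at most 3 were detected, with a summed level of 1.64 and 1.20 CPM at 10 cycles, 1.54 and 1.81 at 14 cycles, 0 and 4.10 at 18 cycles, 0.497 and 0 for 1/2, 0.497 and 4.16 for 1/4, and 2.46 and 0 for 1/8. Cd68 was the most abundant wherever any was detected, and Hba-a1 was at 0 in all 12 libraries. The oocyte markers, the granulosa markers and the share of mitochondrially encoded RNA were all lower at 18 cycles than at 10 or 14 cycles. That share was 0.329% and 0.198% of gene counts with 10 cycles, 0.284% and 0.3005% with 14, and 0.0407% and 0.0665% with 18. It was 0.0358% and 0.0667% for 1/2, 0.0869% and 0.104% for 1/4, then 0.131% and 0.195% for 1/8. The part of these shifts in the results for the initiation factors was not tested.

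Taken as a sum, the 53 genes held a similar share of the counts at 10 and 14 cycles and a larger one in whole oocytes at 18 cycles. Their summed level was 6766 and 7235 CPM with 10 cycles, 6925 and 7158 with 14, and 9576 and 8600 with 18. For the fractions it was 10444 and 8558 CPM for 1/2, 7472 and 7928 for 1/4, and 8105 and 8282 for 1/8. Both libraries at 18 cycles lay above all 4 whole oocytes at 10 and 14 cycles, and so did all 6 libraries from fractions. The larger sum at 18 cycles came from a few abundant genes, with Eif1b at a mean of 482 CPM at 10 cycles and 1713 at 18 cycles, while the median gene was lower at 18 cycles, as given below. Between 50 and 52 of the 53 genes had at least 1 count in each library.

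Relative to the ERCC spike-in, the same genes gave 2.19 and 2.60 counts per ERCC count at 10 cycles and 2.40 and 2.53 at 14 cycles. Whole oocytes at 18 cycles gave 17.9 and 9.96 counts per ERCC count. The fractions gave 4.59 and 2.94 for 1/2, 1.60 and 1.38 for 1/4, then 0.399 and 0.385 for 1/8. The 4 groups at 18 cycles did not overlap on this scale and followed the order of the amount of oocyte. Counts on all genes per ERCC count did so too. There, whole oocytes at 18 cycles had 1873 and 1158 and the 1/2 libraries 439 and 344. The 1/4 libraries had 214 and 174, and the 1/8 libraries 49.3 and 46.5. For the initiation factors the 1/2 libraries, with less oocyte RNA, lay above all 4 whole oocytes at 10 and 14 cycles. Over all genes replicate 2 of 1/2, at 344, did not, as those whole oocytes had 323 to 360. The ERCC counts behind the whole oocytes at 18 cycles were only 1611 and 1474, against 25528 to 39046 in the other whole oocytes.

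**Figure D1:**
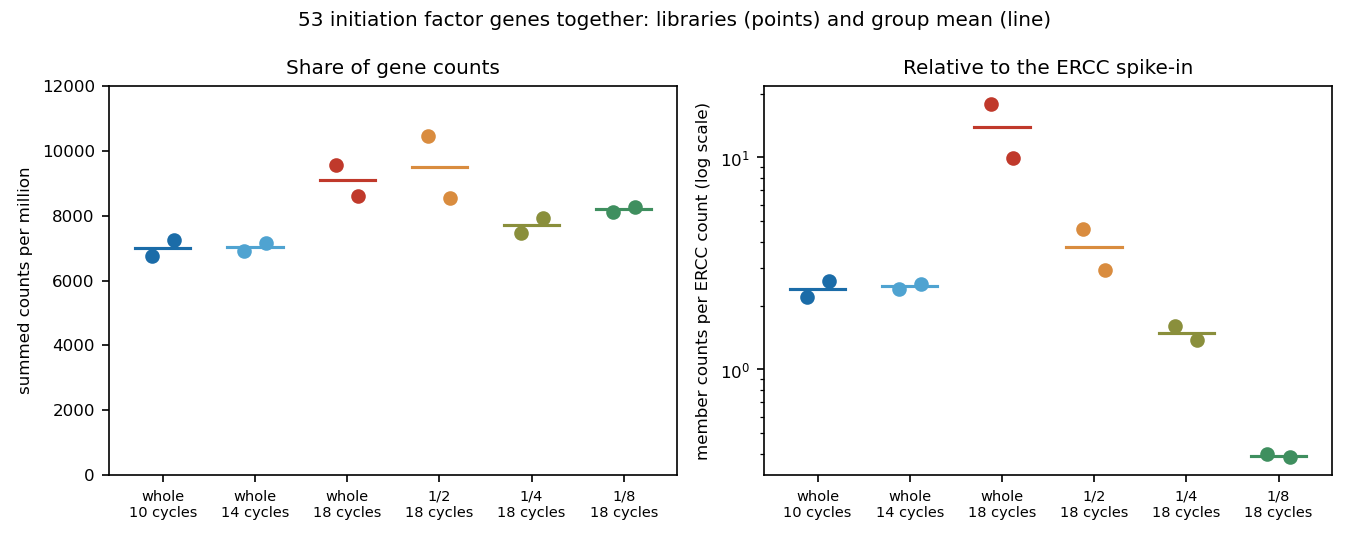
Summed level of the 53 initiation factor genes in each library (points) with the group mean (line), as CPM on the left and as counts per ERCC count on a log axis on the right. Whole oocytes at 18 cycles reached 9576 and 8600 CPM against 6766 to 7235 at 10 and 14 cycles, and on the ERCC scale the libraries at 18 cycles ran from 17.9 for a whole oocyte to 0.385 for 1/8.

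Levels of single genes were compared per kilobase of exon, as the mean of the 4 whole oocytes at 10 and 14 cycles with the SD (n = 4). The most abundant was Eif1b, a close relative of the start codon selection factor eIF1, with 445 ± 47.8 CPM per kb. It was followed by Eif4e3, a cap-binding protein related to eIF4E, with 170 ± 28.7 (SD, n = 4). The next was Eif6, which keeps the large ribosomal subunit from joining too early, with 151 ± 12.95 (SD, n = 4). Eif2b1, a subunit of the exchange factor that recharges eIF2 with GTP, had 146 ± 11.5 (SD, n = 4). The ranges of Eif4e3 (143 to 207), Eif6 (132 to 162) and Eif2b1 (129 to 152) overlapped, so their order is not resolved, whereas Eif1b at 408 to 515 lay above all of them. With the length of the longest transcript the means were 271 for Eif6, 187 for Eif2b1 and 170 for Eif4e3, and 484 for Eif1b. The median gene of the 53 had 20.4 and 20.7 CPM per kb at 10 cycles and 20.2 and 19.1 at 14 cycles, against medians of 0.694, 0.543, 0.670 and 0.696 over all protein-coding genes in the same libraries. At 18 cycles it had 15.5 and 12.8, against 0.440 and 0.287 over all protein-coding genes. The median initiation factor gene thus lay above the median protein-coding gene in every library, while single genes lay below it.

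At the low end, Eif2s3y, the Y-linked gene for the gamma subunit of eIF2, had 0 counts in all 12 libraries. A floor of 3 counts corresponds to 0.217 CPM in the deepest library and 1.76 CPM in the shallowest. Its X-linked counterpart Eif2s3x had 6.73 and 4.35 CPM with 10 cycles, 5.18 and 5.58 with 14, and 2.65 and 1.76 with 18. Eif5a2, a paralogue of the elongation and termination factor gene Eif5a, reached only 0.110 ± 0.0740 CPM per kb (SD, n = 4), Eif3j1, for a loosely bound eIF3 subunit, 0.221 ± 0.0800, and Eif2ak2, the kinase PKR that is activated by double-stranded RNA, 0.308 ± 0.194. Eif5a2 had 0 counts in both 1/4 libraries and Eif2ak2 had 0 in both 1/2 libraries, so no fold change is given for them there. Since reads amplified by PCR carry no molecular identifiers here, floors cover counting error only.

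The first comparison asks whether more amplification changes the measured levels in whole oocytes. With 18 cycles, the genes for the cap-binding protein eIF4E, its helicase partners eIF4A1 and eIF4A2, the scaffold Eif4g2 and the eIF3 subunits e, i and k took a smaller share of the counts than with 10 cycles. The genes for the start codon factors Eif1, Eif1ax and Eif1b, for Eif5a and Eif6 and for the eIF2 kinase Eif2ak3 took a larger share. So did those for Eif2b5, the eIF3 subunits b, f and h, Eif4a3 and the eIF4E-binding protein Eif4ebp2. Of the 53 genes, 52 reached the minimum of 5 counts in 2 or more whole oocytes and were tested, and Eif2s3y was not. With size factors from the median ratio over genes, 7 of the 52 were lower at an adjusted p under 0.01 (edgeR quasi-likelihood, Benjamini-Hochberg), beside 10.8% of all 17532 genes tested. Another 12 were higher, beside 12.3% of all genes, and the other 33 did not pass. Without replicate 2 at 10 cycles 5 were lower and 10 higher, beside 4% and 5.39% of all genes, and without replicate 1 at 10 cycles 6 were lower and 9 higher, beside 5.5% and 5.83%. In none of the 19 did the libraries of the groups overlap, which a call between groups of 2 libraries largely fixes beforehand. The share of all genes without overlap is not given, so nothing is read from this. The shares of the initiation factors, 13.5% lower and 23.1% higher, were not tested against those of all genes. The median log2 fold change of the 52 was 0.09, beside -0.29 over all genes tested. This order rests on the filter, since among genes with 10 counts or more in every library the medians were -0.13 over 45 initiation factor genes and 0.03 over all genes.

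The calls of the 7 lower genes rest on the scaling, and so does the direction of 4 of them. When size factors were taken from the ERCC molecules instead, the median over all genes moved up by 2.25 on the log2 scale. None of the 52 was then lower (edgeR, 0 at an unadjusted p under 0.05 as well; DESeq2 was not run with these factors) and 42 were higher, beside 47.6% of all genes. The account by role that follows uses the median ratio, so each change is relative to the typical gene.

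The counts by role come from few genes each, stand beside the same 10.8% lower and 12.3% higher of all genes, and were not tested against them. Among the proteins that bind the cap, 1 of 3 genes was lower and none higher. Eif4e (ENSMUSG00000028156, chromosome 3, 138526179 to 138559696) encodes the protein that holds the cap itself. It had 123 and 116 CPM at 10 cycles and 126 and 126 at 14 cycles, but 18.2 and 24.0 at 18 cycles. Both oocytes at 18 cycles lay far below all 4 others, with a log2 fold change of -2.26 ± 0.240 (SE) against 10 cycles (edgeR quasi-likelihood, Benjamini-Hochberg adjusted p = 0.000121), which shrank to -0.05 with ERCC size factors (adjusted p = 0.935). Eif4e2, which binds the cap but not eIF4G in the same way, and Eif4e3 gave log2 fold changes of -0.10 and 0.13 and were not called.

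Of the 3 scaffold genes, Eif4g2 was lower. It encodes a relative of eIF4G that lacks the part that binds eIF4E and serves translation that does not depend on the cap (ENSMUSG00000005610, chromosome 7, 111067750 to 111083030). It had 450 and 460 CPM with 10 cycles, 487 and 428 with 14, and 170 and 119 with 18. The log2 fold change was -1.40 ± 0.209 (adjusted p = 0.000613, edgeR quasi-likelihood, Benjamini-Hochberg), and it turned to 0.89 with ERCC size factors without passing the threshold (adjusted p = 0.0807). The canonical scaffold gene Eif4g1 had 162 and 181 CPM at 10 cycles and 164 and 100 at 18 cycles. Its groups overlapped and its log2 fold change was -0.12, or 2.18 with ERCC size factors, where it was called. Eif4g3 had a log2 fold change of -0.43 and was not called. Together the scaffold genes made up 765 and 813 CPM at 10 cycles and 436 and 319 at 18 cycles.

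The helicase eIF4A unwinds the leader of the messenger RNA, and its 3 genes moved in opposite directions relative to the typical gene. Eif4a2 (ENSMUSG00000022884, chromosome 16, 23107444 to 23114136) had 94.9 and 84.9 CPM with 10 cycles, 107 and 80.5 with 14, and 14.6 and 11.1 with 18. Its log2 fold change was -2.53 ± 0.262 (adjusted p = 0.000109, edgeR quasi-likelihood, Benjamini-Hochberg), and -0.26 with ERCC size factors, where it was not called. Eif4a1 had 40.1 and 45.5 CPM at 10 cycles and 8.62 and 15.8 at 18 cycles. Its log2 fold change of -1.60 turned to 0.57 with ERCC size factors, and its call was lost without replicate 1 or replicate 2 at 10 cycles (adjusted p = 0.0181 and 0.0352 in edgeR) and without replicate 1 at 18 cycles (0.028). Eif4a3, whose protein belongs to the exon junction complex and not to the cap complex, had 212 and 175 CPM at 10 cycles and 388 and 355 at 18 cycles. It was higher by 1.21 on the log2 scale, and without replicate 2 at 10 cycles it was no longer called (adjusted p = 0.0139 in edgeR). The cofactor genes Eif4b and Eif4h, whose proteins stimulate eIF4A, had log2 fold changes of -0.32 and -0.35 and were not called.

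The proteins that bind eIF4E and block its contact with eIF4G had 1 higher gene of 3. Eif4ebp2 had 25.0 and 17.6 CPM at 10 cycles and 50.7 and 34.6 at 18 cycles, a log2 fold change of 1.27 ± 0.271 (adjusted p = 0.00449, edgeR quasi-likelihood, Benjamini-Hochberg). This call was lost when any of 5 of the 6 whole oocytes was left out. The adjusted p was then 0.0135 and 0.0422 without replicates 1 and 2 at 10 cycles, 0.0116 and 0.0119 without those at 14 cycles, and 0.0311 without replicate 1 at 18 cycles. Eif4ebp1 had 5.09 and 2.94 CPM at 10 cycles and 18.2 and 4.69 at 18 cycles, and its log2 fold change of 1.80 did not pass in edgeR (adjusted p = 0.051). Eif4ebp3 gave 0.32 and was not called.

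Start codon selection depends on eIF1 and eIF1A, which hold the scanning small subunit open, and 3 of the 6 genes of this role were higher while none was lower. Eif1b (ENSMUSG00000006941, chromosome 9, 120492232 to 120495330) had 475 and 489 CPM with 10 cycles, 459 and 579 with 14, and 1740 and 1687 with 18. The 2 oocytes at 18 cycles were close to each other and far above the rest. The log2 fold change was 2.10 ± 0.206 (adjusted p = 9.11e-05, edgeR quasi-likelihood, Benjamini-Hochberg), and 4.32 with ERCC size factors. Eif1 itself had 58.5 and 71.8 CPM at 10 cycles and 148 and 189 at 18 cycles, a log2 fold change of 1.64 that was not called without replicate 1 at 10 cycles (adjusted p = 0.0118 in edgeR). Eif1ax, the X-linked gene for eIF1A, had 293 and 324 CPM at 10 cycles and 869 and 620 at 18 cycles, with a log2 fold change of 1.52. Eif5, which makes eIF2 hydrolyse its GTP at the start codon, had 376 and 435 CPM at 10 cycles and 414 and 308 at 18 cycles. Its groups overlapped and its log2 fold change was 0.09. Eif1a and Eif1ad were low or moderate in level, with log2 fold changes of -1.05 and -0.47, and were not called. Summed over the role, the level was 1234 and 1349 CPM at 10 cycles and 3197 and 2810 at 18 cycles.

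The complex eIF2, which brings the initiator transfer RNA, had no called gene among the 3 tested of 4 (edgeR; none of them at an unadjusted p under 0.05 and none in DESeq2). Eif2s1, for the alpha subunit whose phosphorylation shuts initiation down, had 65.4 and 56.4 CPM at 10 cycles and 50.05 and 56.8 at 18 cycles, and a log2 fold change of 0.08. Eif2s2 and Eif2s3x, for the beta and gamma subunits, had log2 fold changes of -0.27 and -1.03. For eIF2B, the exchange factor that recycles eIF2, 1 of 5 genes was higher. This was Eif2b5, which encodes the catalytic subunit and had 19.6 and 24.4 CPM at 10 cycles and 59.0 and 59.8 at 18 cycles. Its log2 fold change was 1.70, and it was not called without replicate 1 at 10 cycles (adjusted p = 0.0109 in edgeR). The other 4 eIF2B genes had log2 fold changes from -0.50 for Eif2b4 to 0.16 for Eif2b3.

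Phosphorylation of eIF2 is carried out by 4 kinases, and the gene for 1 of them was higher. Eif2ak3 (ENSMUSG00000031668, chromosome 6, 70844515 to 70905245) encodes PERK, the kinase that responds to unfolded protein in the endoplasmic reticulum. It had 12.6 and 9.69 CPM with 10 cycles, 15.4 and 11.7 with 14, and 56.0 and 48.6 with 18. The log2 fold change was 2.50 ± 0.287 (adjusted p = 0.000164, edgeR quasi-likelihood, Benjamini-Hochberg). Eif2ak1, the heme-regulated kinase and the most abundant of the 4 per kb, had 281 and 264 CPM at 10 cycles and 345 and 331 at 18 cycles. Its groups did not overlap, but the log2 fold change of 0.58 did not pass in edgeR (adjusted p = 0.0323), while DESeq2 called it. Eif2ak4, the kinase GCN2 that senses amino acid shortage, gave 0.35 and was not called. Eif2ak2 had 30 counts and 3 counts at 10 cycles and 1 and 0 at 18 cycles, too few to show a difference of this size. The genes for other proteins that deliver initiator transfer RNA, Eif2a and Eif2d, had log2 fold changes of -0.62 and 0.06 and were not called.

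The largest complex, eIF3, bridges the small subunit and the messenger RNA. Of its 14 genes, 3 were lower, 3 were higher and 8 did not pass. Eif3e (ENSMUSG00000022336, chromosome 15, 43250058 to 43282719) had 73.1 and 76.9 CPM with 10 cycles, 69.0 and 69.8 with 14, and 6.63 and 15.8 with 18. It had the lowest log2 fold change of the 52 genes, -2.57 ± 0.365 (adjusted p = 0.000476, edgeR quasi-likelihood, Benjamini-Hochberg), and -0.40 with ERCC size factors, where it was not called. Eif3i had 166 and 168 CPM at 10 cycles and 46.1 and 55.7 at 18 cycles, and its log2 fold change of -1.46 turned to 0.74 with ERCC size factors. Eif3k had 114 and 137 CPM at 10 cycles and 52.4 and 34.6 at 18 cycles. Its log2 fold change of -1.26 turned to 1.01 with ERCC size factors, and without replicate 2 at 10 cycles it was no longer called (adjusted p = 0.0198 in edgeR). In the other direction, Eif3b, for a scaffold subunit of the complex, had 90.4 and 80.6 CPM at 10 cycles and 293 and 217 at 18 cycles, a log2 fold change of 1.84. The subunits f and h form a pair related to enzymes that remove ubiquitin. Eif3f had 52.7 and 59.9 CPM at 10 cycles and 178 and 142 at 18 cycles, and Eif3h had 119 and 113 at 10 cycles and 269 and 267 at 18 cycles. Their log2 fold changes were 1.77 and 1.48. Eif3a, for the largest subunit, had 111 and 70.5 CPM at 10 cycles and 83.2 and 87.9 at 18 cycles, and its groups overlapped. The summed level of the 14 genes was 1396 and 1334 CPM at 10 cycles and 1582 and 1350 at 18 cycles, so the groups overlapped for the complex as a whole although its subunits moved apart.

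Of the 4 genes for subunit joining and eIF5A, 2 were higher. Eif5a (ENSMUSG00000078812, chromosome 11, 69916714 to 69921958), whose product carries the amino acid hypusine and helps stalled ribosomes, had 183 and 141 CPM with 10 cycles, 186 and 179 with 14, and 432 and 543 with 18. The log2 fold change was 1.87 ± 0.230 (adjusted p = 0.000227, edgeR quasi-likelihood, Benjamini-Hochberg). Eif6 (ENSMUSG00000027613, chromosome 2, 155819832 to 155826925) had 357 and 412 CPM with 10 cycles, 438 and 421 with 14, and 1180 and 925 with 18, with a log2 fold change of 1.71. Eif5b, for the factor that joins the large subunit, had 284 and 478 CPM at 10 cycles and 357 and 393 at 18 cycles, and its groups overlapped. Eif5a2 had 8 and 0 counts at 10 cycles and 6 and 9 at 18 cycles and was not called.

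**Figure D2:**
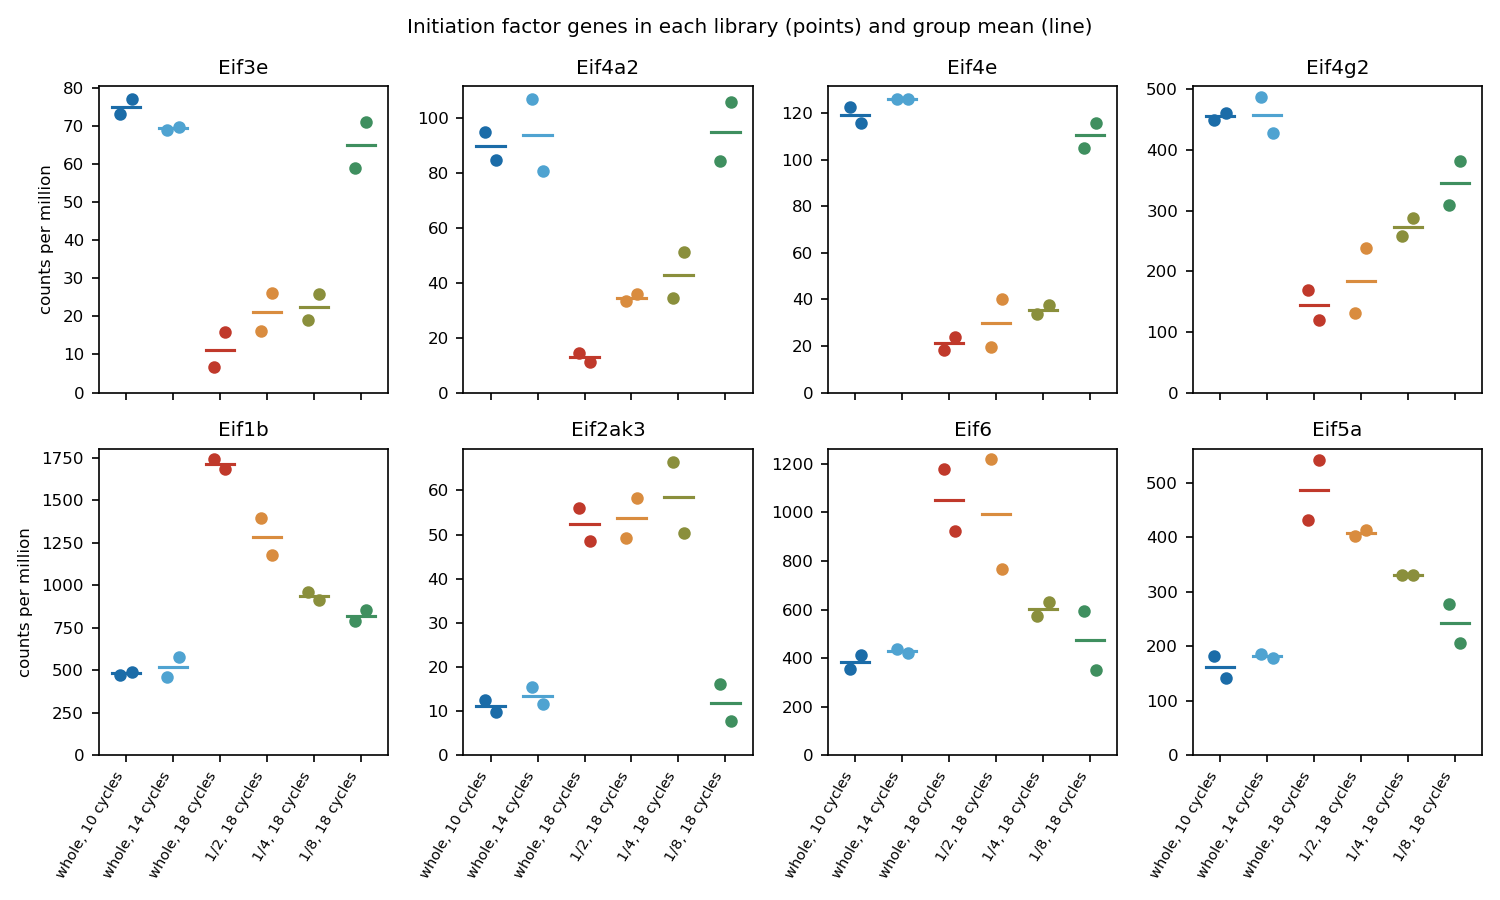
Level in CPM of 8 initiation factor genes in each library (points), with the group mean (line). In the upper panels Eif3e, Eif4a2, Eif4e and Eif4g2 had their lowest group mean in whole oocytes at 18 cycles relative to the typical gene. Eif4e had 18.2 and 24.0 CPM there, with a 1/2 library at 19.6 between them. With ERCC size factors, each of these genes had a higher group mean in whole oocytes at 18 cycles than in any group of fractions. For Eif4a2, single libraries of whole oocytes and of 1/2 overlapped on that scale. Against 10 cycles with ERCC size factors, only Eif4g2 among them changed direction, to a log2 fold change of 0.89, and none was called. In the lower panels Eif1b, Eif6 and Eif5a were high in whole oocytes at 18 cycles (Eif1b 1740 and 1687 CPM), as was Eif2ak3.

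The comparison of 18 with 14 cycles shares the whole oocytes at 18 cycles with the one above, so that the values of both are given side by side and not as separate evidence. At 18 cycles 7 genes were lower than at 14 cycles, beside 10.7% of all genes tested, and 11 were higher, beside 12.5%. Without replicate 1 at 14 cycles 5 were lower and 9 higher, beside 5.23% and 5.73% of all genes, and without replicate 2 at 14 cycles 6 and 9, beside 5.14% and 5.73%. The median log2 fold change was 0.18 for the initiation factors and -0.29 for all genes, or -0.08 and 0.02 among genes with 10 counts or more in every library. With ERCC size factors the median over all genes moved up by 2.27, and 0 of the 52 genes were lower (edgeR, 0 at an unadjusted p under 0.05; DESeq2 was not run with these factors), beside 0.0114% of all genes, while 39 were higher, beside 47.9%. Eif4a2 had log2 fold changes of -2.56 against 14 cycles and -2.53 against 10 cycles. Eif3e had -2.42 and -2.57, Eif4e had -2.31 and -2.26, and Eif4a1 had -1.60 and -1.60, which turned to 0.60 and 0.57 with ERCC size factors. Against 14 cycles Eif3i, Eif3k and Eif4g2 turned as well, to 0.71, 0.83 and 0.94. On the other side, Eif2ak3 had 2.25 and 2.50, Eif1b had 2.03 and 2.10, Eif3f had 1.96 and 1.77, and Eif1 had 1.81 and 1.64. Eif4ebp2, at 0.91, did not pass against 14 cycles in edgeR (adjusted p = 0.0224), while DESeq2 called it. In edgeR, Eif4a1 was not called against 14 cycles when replicate 1 or 2 at 10 cycles, replicate 1 or 2 at 14 cycles or replicate 1 at 18 cycles was left out. Leaving out replicate 1 at 14 cycles ended the calls of Eif3h, Eif4a3 and Eif4g2 as well, and leaving out replicate 2 at 14 cycles those of Eif2b5 and Eif4a3.

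Between 14 and 10 cycles, no initiation factor gene passed the threshold in either direction, and neither did any of the 17532 genes tested, which is 0% in each direction (edgeR quasi-likelihood). At an unadjusted p under 0.05 the initiation factors gave 0 lower and 1 higher, beside 1.35% and 1.57% of all genes, and DESeq2 called 0. The gene was Eif4h, with 126 and 137 CPM at 10 cycles and 195 and 186 at 14 cycles and a log2 fold change of 0.50. The median log2 fold change was -0.01, beside 0.01 for all genes. These are the 4 deepest of the whole-oocyte libraries.

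The second set of comparisons sets fractions against whole oocytes, at 18 cycles throughout, with the whole oocytes at 18 cycles as the reference. The fractions came from other oocytes than these, so amount, oocyte, depth and preparation cannot be told apart in these comparisons. The same 52 genes were tested among 14788 genes. For 1/2 of an oocyte, edgeR called 0 genes lower and 0 higher, beside 0.0406% and 0.0811% of all genes. At an unadjusted p under 0.05 there were 3 lower and 8 higher, beside 6.61% and 6.53% of all genes. DESeq2 called 1 lower, Eif4ebp2, beside 0.331% of all genes. That gene had 12.4 and 16.4 CPM for 1/2 and 50.7 and 34.6 in whole oocytes, and a log2 fold change of -1.61. The median log2 fold change was 0.11, beside -0.01 over all genes.

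For 1/4 of an oocyte, edgeR again called 0 lower and 0 higher, beside 0.426% and 0.0338% of all genes. At an unadjusted p under 0.05 there were 11 lower and 5 higher, beside 8.47% and 7.29% of all genes. DESeq2 called 4 lower, Eif1, Eif1ax, Eif1b and Eif4a3, beside 1.16% of all genes, and 1 higher, Eif4a2, beside 0.473%. Eif1 had 68.3 and 73.5 CPM for 1/4 and 148 and 189 in whole oocytes, a log2 fold change of -1.39 that did not pass in edgeR (adjusted p = 0.0225). Eif4a2 had 34.5 and 51.1 CPM for 1/4 and 14.6 and 11.1 in whole oocytes, a log2 fold change of 1.58 (adjusted p = 0.0303 in edgeR). The median log2 fold change was 0.03, beside 0.05 over all genes.

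For 1/8 of an oocyte, several genes with a low share in whole oocytes at 18 cycles had a larger share, and several with a high share had a smaller one. With the median ratio, 5 genes were higher, beside 7.06% of all genes, and 9 were lower, beside 8.69%. The median log2 fold change was 0.01, beside 0.03 over all genes. The whole oocytes at 18 cycles enter with the opposite sign here and in the comparisons of cycles, so an opposite sign in those comparisons is fixed in part by their common libraries. These counts also rest on which whole oocytes serve as the reference. With all 6 whole oocytes as the reference, 0 were lower and 0 higher in edgeR, beside 0% of all genes, with 0 and 1 at an unadjusted p under 0.05, beside 6.25% and 1.87%. With the 4 whole oocytes at 10 and 14 cycles, a reference chosen after the data had been seen, 0 and 0 were called of the 52 and of all 17981 genes tested (0% in each direction), with 2 lower and 9 higher among the initiation factors at an unadjusted p under 0.05, beside 11.2% and 7.99% of all genes. With this reference 5 were lower and 19 higher for 1/2, beside 10.3% and 13.9% of all genes, and 3 lower and 7 higher for 1/4, beside 6.7% and 9.73%. DESeq2 was not run with these references. A single library mattered too. Without replicate 1 of the whole oocytes at 18 cycles, 4 were lower and 2 higher, beside 5.55% and 1.96% of all genes. Without replicate 1 of the 1/8 libraries, 5 were lower and 6 higher, beside 6.72% and 5.24%.

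Among the higher genes, Eif4a2 had 84.4 and 106 CPM for 1/8 against 14.6 and 11.1 in whole oocytes at 18 cycles. The log2 fold change was 2.67 ± 0.369 (adjusted p = 3.32e-05, edgeR quasi-likelihood, Benjamini-Hochberg), and the 1/8 libraries lay within the 80.5 to 107 CPM of whole oocytes at 10 and 14 cycles. Eif3e had 59.0 and 71.1 CPM for 1/8 against 6.63 and 15.8, a log2 fold change of 2.37 that was not called without replicate 1 of the whole oocytes (adjusted p = 0.0234 in edgeR). Eif4e had 105 and 116 CPM against 18.2 and 24.0, a log2 fold change of 2.19, also not called without that library (0.0107). Eif3k had 171 and 151 CPM against 52.4 and 34.6, and Eif3i had 179 and 174 against 46.1 and 55.7. Their log2 fold changes were 1.69 and 1.60, and Eif3i was not called without the same replicate (0.0239). With whole oocytes at 10 and 14 cycles as the reference the log2 fold changes of Eif3e and Eif4e turned to -0.09 and -0.09. Relative to ERCC, all 5 of these genes were lower in 1/8, from -3.32 for Eif3i and Eif3k to -2.32 for Eif4a2.

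Among the lower genes, Eif2ak3 had 16.0 and 7.64 CPM for 1/8 against 56.0 and 48.6 in whole oocytes at 18 cycles. The log2 fold change was -2.23 ± 0.383 (adjusted p = 0.000246, edgeR quasi-likelihood, Benjamini-Hochberg), and it turned to 0.14 against whole oocytes at 10 and 14 cycles. In the 1/2 and 1/4 libraries this gene had 49.2, 58.4, 66.5 and 50.3 CPM, near the whole oocytes at 18 cycles. Eif3b had 81.1 and 63.5 CPM for 1/8 against 293 and 217, with a log2 fold change of -2.002. Eif1b had 791 and 852 against 1740 and 1687 (log2 fold change -1.26), Eif6 had 593 and 353 against 1180 and 925 (-1.35), Eif5a had 277 and 207 against 432 and 543 (-1.22), Eif3f had 64.2 and 87.0 against 178 and 142 (-1.29), and Eif4a3 had 202 and 170 against 388 and 355 (-1.19). Against whole oocytes at 10 and 14 cycles these turned to 0.79 for Eif1b, 0.29 for Eif6, 0.57 for Eif5a, 0.55 for Eif3f and 0.02 for Eif4a3. Eif4ebp2 had 13.6 and 21.7 CPM against 50.7 and 34.6 (-1.53), but its 1/4 libraries, at 54.6 and 80.0 CPM, lay above both whole oocytes (0.51, not called). Eif4ebp1 was called with a log2 fold change of -3.50, but on 3 and 6 counts in the 1/8 libraries.

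Most of these calls depended on single libraries in edgeR. Without replicate 1 of the whole oocytes at 18 cycles the adjusted p was 0.0196 for Eif3f, 0.0104 for Eif4a3, 0.231 for Eif4ebp1, 0.0576 for Eif4ebp2 and 0.0191 for Eif6. Without replicate 2 of them it was 0.0252 for Eif5a. Without replicate 1 of the 1/8 libraries it was 0.0144 for Eif1b, 0.0355 for Eif3f, 0.14 for Eif4ebp1 and 0.0755 for Eif4ebp2. Without replicate 2 it was 0.0269 for Eif4a3, 0.0378 for Eif5a and 0.0498 for Eif6. Eif4ebp1 was also lost without either 1/2 library (0.0196 and 0.0187) and Eif4ebp2 without replicate 2 of the 1/4 libraries (0.0101). Eif2ak3, Eif3b, Eif3k and Eif4a2 passed with each of the 8 libraries left out in turn.

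**Figure D3:**
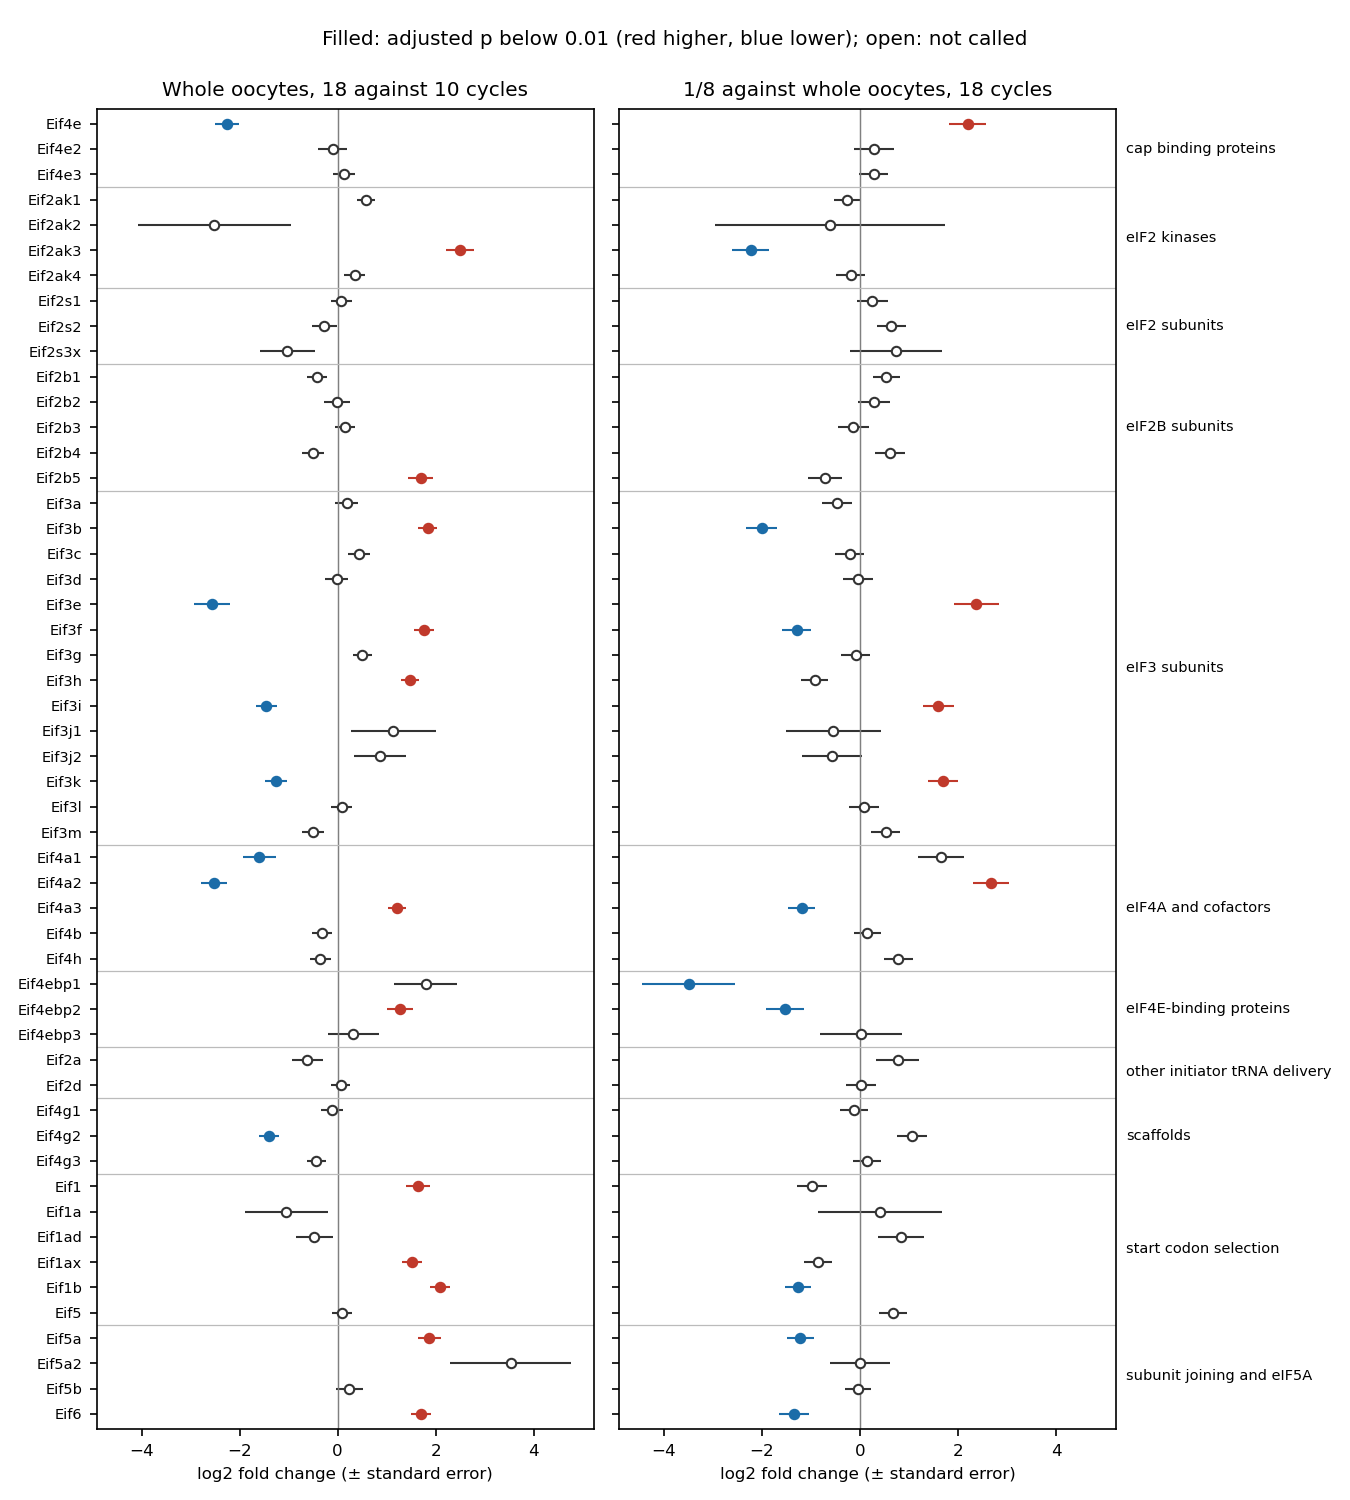
Log2 fold changes with standard errors of the 52 tested initiation factor genes by role, for 18 against 10 cycles in whole oocytes and for 1/8 against whole oocytes at 18 cycles, with median ratio size factors; both panels contain the whole oocytes at 18 cycles. Lower genes at 18 cycles reached -2.57 (Eif3e), and with ERCC size factors Eif3i, Eif3k, Eif4a1 and Eif4g2 turned to between 0.57 and 1.01 there, while all 5 higher genes in 1/8 were lower.

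With ERCC size factors, initiation factor genes were called lower in all fractions than in whole oocytes at 18 cycles. For 1/2 of an oocyte 34 of 52 were lower, beside 52% of all genes, with a median log2 fold change of -1.91 for the initiation factors and -1.997 for all genes. For 1/4 it was 47, beside 69.7%, with medians of -2.72 and -2.69, and for 1/8 it was 51, beside 87.5%, with medians of -4.93 and -4.92. In each comparison 0 were higher, beside 0% of all genes (edgeR, 0 at an unadjusted p under 0.05, and 0 in DESeq2). With this reference the medians of the initiation factors were thus close to those of all genes. The fractions themselves are -1, -2 and -3 on the log2 scale, and the medians rest on the reference. With all 6 whole oocytes they were -0.91, -1.77 and -3.95, beside -1.15, -1.90 and -3.94 for all genes. With the whole oocytes at 10 and 14 cycles they were 0.58, -0.355 and -2.59, beside -0.12, -0.63 and -2.83. Without replicate 1 of the whole oocytes at 18 cycles the median for 1/2 was -1.26, beside -1.39. Whole oocytes at 18 and 10 cycles, each a single oocyte, differed by a median of 2.35 over the initiation factors with ERCC size factors. Over all genes this median was 1.96. The part of the amount of oocyte in these values was not tested. The count for 1/2 fell to 14 without replicate 1 of the whole oocytes at 18 cycles, beside 21.1% of all genes, and to 6 without replicate 2 of the 1/2 libraries, beside 13.2%, so the count over all genes fell as well. With all 6 whole oocytes as the reference it was 0 lower for 1/2 and for 1/4 in edgeR, beside 0% of all genes (DESeq2 was not run). At an unadjusted p under 0.05 there were 5 and 12 lower, beside 13.8% and 32.1% of all genes. For 1/8 the count at the adjusted threshold was 28 lower, beside 47.2%. With the whole oocytes at 10 and 14 cycles as the reference, 4 were lower and 17 higher for 1/2, beside 6.3% and 13.6% of all genes. For 1/4 there were 6 lower and 3 higher, beside 11.4% and 3.2%. For 1/8 there were 51 lower, beside 82.3%, and 0 higher, beside 0% (edgeR, 0 higher at an unadjusted p under 0.05; DESeq2 was not run).

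Within the fractions on the ERCC scale, Eif4ebp2 was furthest down for 1/2 among the named genes with counts in both groups, with 75.6 and 70.0 normalised counts against 1281 and 563 in whole oocytes and a log2 fold change of -3.67 ± 0.563 (adjusted p = 4.11e-06, edgeR quasi-likelihood, Benjamini-Hochberg). For 1/4, the lowest of the named genes with counts in both groups were Eif4ebp1 and Eif1, where Eif4ebp1 had -4.98 and Eif1 had -4.08. For 1/8, Eif4ebp1 had -8.57, Eif2ak3 had -7.21 and Eif3b had -7.00. Eif4ebp1 had 460.59 and 76.4 normalised counts in the whole oocytes, so the size and rank of its fold changes rest on replicate 1. For Eif3b the log2 fold changes were -3.18 for 1/2, -3.79 for 1/4 and -7.00 for 1/8, and against whole oocytes at 10 and 14 cycles they turned to 0.87 for 1/2 and 0.39 for 1/4. Eif4a2 was the least lowered of the called genes for 1/8, with -2.32, and was not called for 1/2 or 1/4. Its call for 1/8 was lost without replicate 1 of the whole oocytes (adjusted p = 0.0118 in edgeR). Eif2ak2, with 1 and 0 counts in whole oocytes at 18 cycles and 2 and 0 in the 1/8 libraries, was the 1 gene not called for 1/8.

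Several initiation factors are encoded by paralogues, whose levels per kilobase are set side by side. Eif4a2 exceeded Eif4a1 in all 4 whole oocytes at 10 and 14 cycles, with 17.8, 15.9, 20.02 and 15.1 CPM per kb for Eif4a2 against 9.25, 10.5, 9.92 and 10.3 for Eif4a1. At 18 cycles the order was not resolved, with 2.73 and 2.09 for Eif4a2 and 1.99 and 3.65 for Eif4a1. Eif1b exceeded Eif1 in every library, with 422 and 435 against 27.9 and 34.2 at 10 cycles and 1547 and 1499 against 70.5 and 89.9 at 18 cycles. The X-linked Eif1ax exceeded Eif1a, with 55.7 and 61.6 against 1.26 and 0.574 at 10 cycles. Eif5a exceeded Eif5a2, with 76.8 and 59.5 against 0.137 and 0 at 10 cycles. Eif4e exceeded Eif4e2 at 10 cycles, with 20.4 and 19.2 against 3.34 and 2.77. At 18 cycles it had 3.03 and 4.00 against 2.48 and 2.27, but with the length of the longest transcript 3.65 and 4.81 against 5.34 and 4.89, so the order there rests on the length used. Eif4g1 exceeded Eif4g3 in all 12 libraries, with 22.1 and 24.8 against 13.9 and 15.6 at 10 cycles. Eif3j2 exceeded Eif3j1 in all 12 libraries as well, although both stayed under 5 CPM per kb and their transcripts are nearly identical over long stretches. Near-identical copies also covered 68.7% of the longest coding transcript of Eif4a1, 32.2% of Eif5a, 25.9% of Eif1, 15.5% of Eif4a2 and 13.1% of Eif4e. The levels of these genes are therefore uncertain as well.

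Other genes of the pathway were taken from 2 lists. Of 28 other genes of initiation, all were tested at 18 against 10 cycles, 2 were lower and 1 was higher, beside 10.8% and 12.3% of all genes. Ddx3x, a helicase that helps ribosomes through structured leaders, was lower by a log2 fold change of -1.39, and Gigyf2, a partner of the repressor 4EHP, by -1.02. Denr, which recycles ribosomes and supports reinitiation, was higher by 1.44. Against 14 cycles Ddx3x (-1.11) and Denr (1.497) were called again, Gigyf2 was not (-0.73, adjusted p = 0.0164 in edgeR), and Cpeb1, which binds elements that control the poly(A) tail, was higher (0.88). The oocyte relative of eIF4E, Eif4e1b, and the eIF4E transporter Eif4enif1 had log2 fold changes of -0.68 and -0.08 and did not pass. For 1/8 against whole oocytes, Rptor, a component of the growth regulator mTORC1, and Ppp1r15b, which brings a phosphatase to eIF2, were lower (-1.68 and -1.26), and Ddx3x was higher (1.07), which turned to -3.87 with ERCC size factors. Of 11 genes of elongation and termination, 10 were tested at 18 against 10 cycles, 3 were lower and 3 higher, beside the same shares of all genes. The elongation factor gene Eef1a1 had 1333 and 1298 normalised counts at 10 cycles and 254 and 354 at 18 cycles, a log2 fold change of -2.14. Eef1e1 and the eEF2 kinase gene Eef2k had -1.03 and -1.19. The exchange factor gene Eef1b2 had 1.23, and the release factor genes Gspt1 and Gspt2 had 0.83 and 0.93. For 1/8 against whole oocytes Eef1a1 and Eef1e1 were higher (1.88 and 1.56), and with ERCC size factors both were lower (-3.04 and -3.37). For 1/2 Eef1e1 was higher (1.94), with 0.01 on the ERCC scale, where it was not called. All of these directions are relative to the typical gene, and the calls of these lists were not repeated with ERCC size factors for the cycle numbers.

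The base composition of the genes that moved is given as a description. The share of G and C in the longest coding transcript had a median of 43.2% over the 7 genes that were lower at 18 against 10 cycles, 52.8% over the 12 that were higher and 49.2% over the 33 others. Over all genes tested the medians were 45.7%, 54.3% and 49.2%. For 1/8 against whole oocytes the medians were 40.5% over the 5 higher genes and 53.8% over the 9 lower genes, beside 45.3% and 55.7% over all genes. The ranges overlapped, with 40.2% to 53.9% for the 7 lower and 39.7% to 57.9% for the 12 higher genes. The part of base composition in the changes was not tested, and the lower direction of Eif3i, Eif3k, Eif4a1 and Eif4g2 at 18 cycles turned with ERCC size factors.

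As an illustration, the central 90 bases of the coding sequence are given for 4 genes. These had the 2 lowest and the 2 highest log2 fold changes among those called at 18 against 10 cycles. Eif5a2, with a larger fold change that was not called, had 38.8% G and C in its longest coding transcript and so went against the pattern. The sequences come from GENCODE release 21 (GRCm38), run 5′ to 3′ along the coding strand, and have G and C in capitals. Eif3e is on the minus strand at chr15:43250058-43282719, and the others are on the plus strand, Eif4a2 at chr16:23107444-23114136, Eif2ak3 at chr6:70844515-70905245 and Eif1b at chr9:120492232-120495330.
Eif3e: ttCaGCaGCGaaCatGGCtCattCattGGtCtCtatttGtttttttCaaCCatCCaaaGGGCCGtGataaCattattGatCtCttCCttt
Eif4a2: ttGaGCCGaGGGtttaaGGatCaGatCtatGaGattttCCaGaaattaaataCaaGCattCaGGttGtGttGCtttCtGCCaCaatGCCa
Eif2ak3: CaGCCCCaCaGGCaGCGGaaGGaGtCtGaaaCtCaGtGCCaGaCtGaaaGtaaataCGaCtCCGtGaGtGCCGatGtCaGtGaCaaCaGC
Eif1b: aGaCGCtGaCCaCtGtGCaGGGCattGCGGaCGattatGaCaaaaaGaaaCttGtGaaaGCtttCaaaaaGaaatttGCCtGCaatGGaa
These stretches hold 38.9%, 40.0%, 54.4% and 42.2% G and C, and the whole coding sequences hold 41.3%, 43.5%, 53.2% and 49.3%. The stretch of Eif1b, a higher gene, was thus close to that of Eif4a2, a lower gene. The central stretch was chosen after the first 60 coding bases had been looked at, where the shares were 55.0%, 58.3%, 75.0% and 50% and the lower and higher genes were not separated. The 4 sequences are therefore an illustration, and the medians above are the measurement.

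The values of some genes are uncertain because other genes share their sequence or position. Exons of 22 of the 53 genes overlap those of another annotated gene, over 67.3% of exon length for Eif4ebp3, 43.3% for Eif3d, 20.2% for Eif3j1 and 16.8% for Eif5b. Near-identical copies elsewhere in the annotation, with at least 97% identity over at least 100 bases, covered 100% of the longest coding transcript of Eif3j2, 87.7% of Eif3m, 68.7% of Eif4a1, 56.0% of Eif3j1, 39.0% of Eif2s2, 37.0% of Eif2s3x, 32.2% of Eif5a, 25.9% of Eif1, 15.5% of Eif4a2 and 13.1% of Eif4e. The files list 0 reads as not unique in every library, so how reads that fit more than 1 place were handled before counting cannot be told from them. The methods give default settings for another version of the counting tool, and the strand setting behind these files is not settled, so the levels of these genes are uncertain. Protein identity between paralogues was not computed. No such copy was found for Eif3e, Eif3b, Eif3f, Eif1b, Eif2ak3 or Eif6, but exons of the last 3 overlap a gene on the opposite strand over 12.7%, 8.05% and 5.11% of their length.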

How the data were processed

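The count values were made by the authors before they were deposited. Their processing notes list trimming with cutadapt 2.5, read checks with FastQC 0.11.8, alignment to mm10 with STAR 2.7.2a, SAMtools 1.9 and counting with HTSeq 0.9.1, and they name R 3.5.1 and DESeq2 1.24.0. The published methods name other versions of some tools. CPM were computed here as counts over counts on genes, and CPM per kb by the union of exons.

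Groups were compared with edgeR 4.0.16 quasi-likelihood in R 4.3.3 on genes with 5 counts or more in 2 or more libraries, with size factors from the median ratio or from ERCC molecules. Adjusted p are Benjamini-Hochberg values and the threshold was 0.01. DESeq2 1.42.0 was an alternative. The 3 cycle groups shared a fit, as did the 4 groups at 18 cycles.

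Genes and lists were chosen with earlier results of these data known. Named genes are those called with a mean of 50 normalised counts or more that had the largest fold changes, up to 8 in each direction for 18 against 10 cycles and for 1/8 and up to 4 elsewhere, a list of central factors, and the 3 highest and lowest per kb. The reference of whole oocytes at 10 and 14 cycles was added after the data had been seen. The central window of the printed sequences was chosen after the first window had been seen.

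Each group has 2 libraries, so a gene that was not called may still differ. Replicates are single oocytes or fractions of them, reads carry no molecular identifiers, and cycle number, depth, oocyte and preparation cannot be told apart. Between fractions and whole oocytes, amount, depth, oocyte and preparation cannot be told apart either. ERCC size factors rest on few counts in whole oocytes at 18 cycles. Poly(A) selection means that a change in tail length and a change in amount cannot be told apart.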

Additional observations from a re-analysis of the deposited data

How the results depend on the processing

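With ERCC size factors for the cycle numbers, members lower against 10 cycles went from 7 to 0 and members higher from 12 to 42 (0% and 47.6% of all genes), and against 14 cycles lower went from 7 to 0 and higher from 11 to 39 (0.0114% and 47.9%). Against 10 cycles Eif3i became 0.74, Eif3k 1.01, Eif4a1 0.57, Eif4g1 2.18 and Eif4g2 0.89, and against 14 cycles Eif4a1 became 0.60.

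DESeq2 gave 1 lower for 1/2 (0.331% of all genes), and 4 lower and 1 higher for 1/4 (1.16% and 0.473%). Without a filter there was 1 lower for 1/2 (0.494% of all genes), and 1 lower and 1 higher for 1/4 (0.654% and 0.189%). With a replicate block there was 1 lower for 1/4 (0.71%). The numbers were not taken as paired, since it is not stated which fraction came from which lysate. Deviations of replicates with the same number had correlations from -0.142 to 0.136, and from -0.11 to 0.08 between fractions. These correlations cannot settle whether fractions with the same number share an oocyte.

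With all 6 whole oocytes as the reference, 1/8 had 0 lower and 0 higher (0% of all genes in each direction). With ERCC size factors there were 0 lower for 1/2, 0 for 1/4 and 28 for 1/8 (0%, 0% and 47.2%). With whole oocytes at 10 and 14 cycles as the reference, 1/2 had 5 lower and 19 higher (10.3% and 13.9% of all genes). For 1/4 there were 3 lower and 7 higher (6.7% and 9.73%), and for 1/8 0 and 0 (0% and 0%). With ERCC size factors 1/2 had 4 lower and 17 higher (6.3% and 13.6%), and 1/4 had 6 lower and 3 higher (11.4% and 3.2%). With this reference the log2 fold changes for 1/8 became 0.79 for Eif1b, 0.14 for Eif2ak3, -0.093 for Eif3e, 0.55 for Eif3f, 0.021 for Eif4a3, -0.085 for Eif4e, 0.57 for Eif5a and 0.29 for Eif6. On the ERCC scale, Eif2b5 became 0.70 and Eif3b 0.87 for 1/2, and Eif1ax became 0.057 and Eif3b 0.39 for 1/4.

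With 1 library left out at a time, members lower ranged from 5 to 7 and higher from 9 to 12 for 18 against 10 cycles, and from 5 to 8 and 9 to 12 for 18 against 14 cycles. Over all genes these ranged from 4% to 10.4% and 5.39% to 12.4%, and from 5.14% to 10.3% and 5.73% to 12.3%. For 1/8 lower ranged from 4 to 9 and higher from 2 to 6, and over all genes from 4.7% to 8.18% and 1.96% to 6.55%. On the ERCC scale lower ranged from 6 to 40 for 1/2, 35 to 47 for 1/4 and 48 to 51 for 1/8, and over all genes from 13.2% to 60.4%, 46.7% to 74.3% and 75.8% to 88.2%.

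CPM over counts on genes plus reads on no feature had means of 6239.9 at 10, 6270.0 at 14 and 8284 at 18 cycles, 7085 for 1/4 and 7501 for 1/8. With the length of the longest transcript the median level per kb was 29.7 at 10, 29.1 at 14 and 21.5 at 18 cycles, 28.1 for 1/2, 32.5 for 1/4 and 28.5 for 1/8.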
